A study of Mus musculus with 20 samples.

Results

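Gene expression was compared in the mouse hypothalamic cell line mHypoE-46 (E46) between 4 arrays of cells given serotonin, titled 100 µg/ml, and 4 arrays of control cells, with a 24 h exposure. These 8 arrays were taken by their titles from the 20 arrays of the study. The other 12 arrays hold E46 cells at serotonin titled 1 µg/ml, control cells of a second hypothalamic line, mHypoA-2/12 (A2/12), and A2/12 cells at serotonin titled 100 µg/ml, with 4 arrays each. The study set out to follow the effect of serotonin on the appetite peptide Npy, and in its labels E46 is the line that responds to serotonin and A2/12 the line that does not. Both groups compared here were monolayers moved to DMEM without serum, with penicillin and streptomycin, 4 h before the exposure, so the controls carry the serum withdrawal too. No vehicle for the controls is given in the sources used here. E46 is a clonal line, immortalised with a viral T antigen, and stands for the tissue only as a single clone in culture. Whether each array had its own culture is not stated in the labels. The p-values thus measure only the spread between arrays of the same group, over all groups of the study, which may be technical. A further label of the arrays gives the E46 doses crossed, with 1 for those titled 100 and 100 for those titled 1. Groups here follow the titles. Under the crossed label the comparison called 1 gene higher and 1 gene lower.

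Serotonin is an amine transmitter that acts on cells through a family of surface receptors, enters cells through carriers and is broken down by monoamine oxidase. Cells under stress share a small set of response programmes. In the integrated stress response, kinases that sense amino acid shortage, misfolded protein, viral RNA or heme shortage phosphorylate the initiation factor eIF2, which lowers bulk protein synthesis while the transcription factor ATF4 is made and switches on genes of amino acid supply. Sterol shortage, oxidants, misfolded proteins in the endoplasmic reticulum (ER) and damaged DNA each have a programme of their own. The response of E46 is described below in 81 lists of such genes, with 2581 measured members, grouped in 14 sections.

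Values are log2 expression levels from RMA, a step of 1 is a 2-fold difference, and 18820 genes were tested. A level of a group is its mean ± SD (n = 4 arrays). A change is serotonin minus control on the log2 scale, from 4 against 4 arrays, and is given ± SE. The SE comes from the limma fit of all groups of the study, so a gene has the same SE in each comparison with controls. It can understate the spread of the 8 arrays compared here. For Myl9 the SD was 0.06 in controls and 0.53 with serotonin, with an SE of 0.17. For other genes the controls spread more, such as Rrs1 (SD 0.64 and 0.22). Calls required adjusted p under 0.05 in limma, with Benjamini-Hochberg adjustment over all genes tested. A level under about 4.38 in controls and 4.45 with serotonin was no higher than 95% of 1157 receptor genes for odorants and pheromones, taken as background. Folds near that background are compressed toward 0. Arrays of a group correlated at 0.995 to 0.998 and arrays of different groups at 0.972 to 0.983. Control replicate 1 had the lowest upper quartile of the 8 arrays, 8.09 against 8.23 to 8.31 in the other 7. It also lay farthest from the rest of its group, with a root mean square difference of 0.236 against 0.159 to 0.169. Serotonin replicate 1 lay farthest within its own group, at 0.210 against 0.149 to 0.165, and was the array nearest the controls for several of the genes that fell most. Without control replicate 1, 3318 genes were called higher and 3658 lower, and without serotonin replicate 1, 3905 and 3367.

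The name of the cells as neuronal was checked against markers. In controls 5 of 10 measured neuron markers lay above background: the microtubule protein Map2 was strong at 10.43 ± 0.06 and the ubiquitin hydrolase Uchl1 lay at 7.58 ± 0.12, while the nuclear marker Rbfox3 (4.16 ± 0.05), the synaptic protein Snap25 (4.12 ± 0.11) and the neurofilaments Nefl and Nefm (3.51 ± 0.11 and 3.34 ± 0.10) were at background. Of 10 astrocyte markers 8 lay above background in controls, with the transcription factor Sox9 at 10.12 ± 0.07 but Gfap at 4.01 ± 0.16 and Aqp4 at 3.85 ± 0.12, within it. The levels of mesenchymal genes were high: Acta2, smooth muscle actin, lay at 12.56 ± 0.09, the receptor Pdgfrb at 12.26 ± 0.04 and collagen Col1a1 at 11.72 ± 0.08. The cells of these arrays thus carried neither the full neuron set nor the full astrocyte set.

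In all 7451 genes changed, 39.6% of those tested: 3826 rose (20.3%) and 3625 fell (19.3%). Of these, 435 rose (2.31%) and 773 fell (4.11%) by at least 2-fold. The median change of all genes was -0.00346, and 5% of genes lay below -0.89 and 5% above 0.73. All 4 serotonin arrays lay above all 4 controls for 3945 genes (21.0%) and below them for 3651 (19.4%). With each array centred on its median, the median change of all genes moved by about 0.12, and the share of calls that were higher went from 51.3% to 66.4% (5252 higher, 2658 lower), so small increases and decreases below are relative to the deposited scale. The scan names of the arrays carry a position with a row letter and a number. Only row B holds arrays of both groups, control replicate 4 and serotonin replicates 1 and 2. Because row A holds only controls among these arrays and row C none, the fit with the row letter as a block compares those 3 arrays alone for this contrast, with the spread of all groups. A group of 1 array is there assumed to vary like the others. With the row letter as a block 1545 genes were called higher and 2387 lower, and within row B alone 1340 and 2132. At position number 5, 2 controls against 1 serotonin array gave 1699 and 1484. At position 7, 1 control against 2 serotonin arrays gave 1381 and 2088. At position 9, with 1 array against 1, the counts were 217 and 654, and the spread came from arrays of another group at that position. Against a fold of 1.5 by limma's treat, 605 genes rose and 941 fell.

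**Figure D1:**
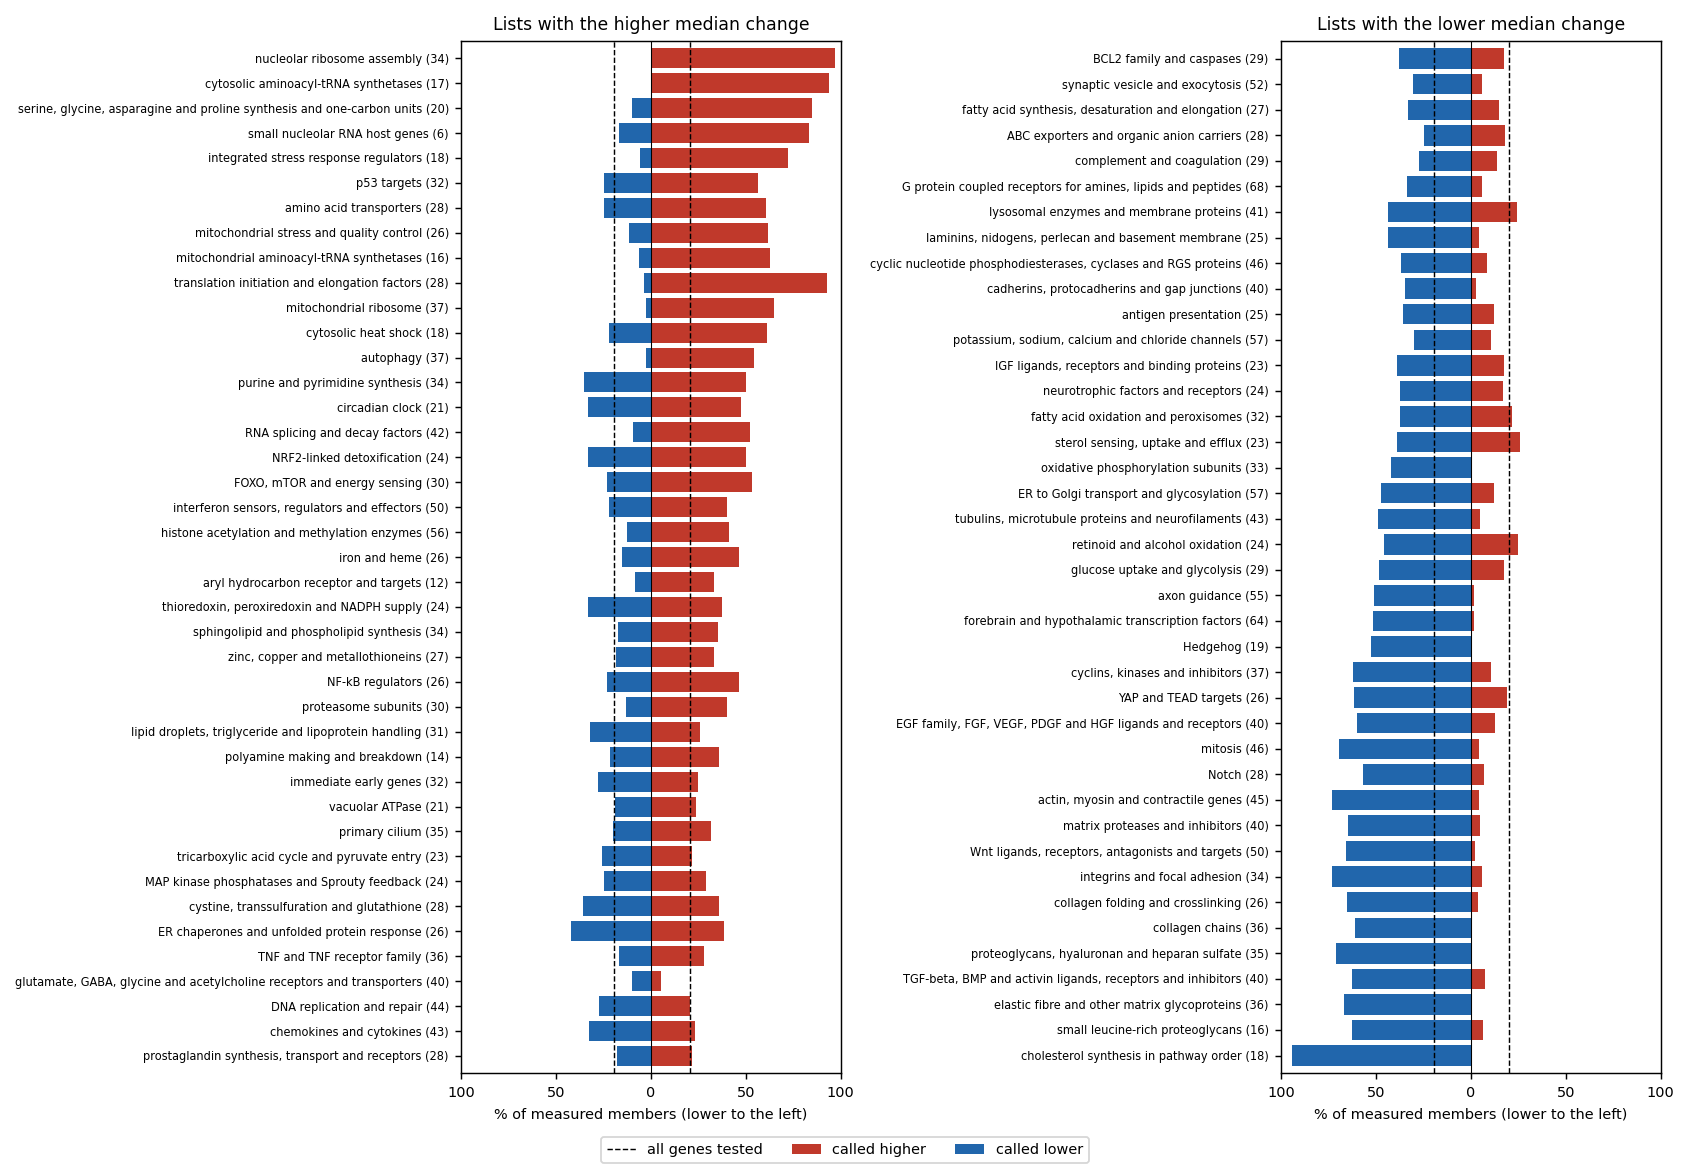
Share of the measured members called higher (red, to the right) and lower (blue, to the left) in each of the 81 gene lists, in % of the members measured, whose number stands in brackets, for E46 serotonin 100 against control. Dashed lines mark the shares over all genes tested, 20.3% higher and 19.3% lower, and nucleolar ribosome assembly (97.1% higher) and cholesterol synthesis (94.4% lower) lie at the ends.

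Beyond the 10 largest increases, the next 15 among genes whose groups did not overlap were of several kinds. They held the ion pump Atp13a4 (2.85 ± 0.15), the chemokine Ccl5 (2.83 ± 0.11), the tRNA-modifying enzyme Dus4l (2.73 ± 0.12) and Paqr3 (2.67 ± 0.13), a Golgi membrane protein. Next came the ATP-gated channel P2rx3 (2.65 ± 0.19), the pseudokinase Trib3 (2.62 ± 0.11), the heparan sulfate enzyme Extl1 (2.48 ± 0.11) and Cox6a2 (2.45 ± 0.11), a muscle form of a cytochrome oxidase subunit. The small GTPase Rab39b (2.31 ± 0.12), the heme enzyme Cpox (2.29 ± 0.09), the mitochondrial protein Chchd10 (2.28 ± 0.14), the thioesterase Acot2 (2.25 ± 0.10), the transcription factor subunit Taf4b (2.25 ± 0.11), the arginine and lysine carrier Slc7a3 (2.20 ± 0.15) and the peptide hormone Adm2 (2.18 ± 0.12) completed them. Atp13a4 started from 4.44 ± 0.06 in controls, at the background, so that its fold is compressed.

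The corresponding 15 decreases were headed by Gper1, an estrogen-binding G protein coupled receptor, which fell from 9.15 ± 0.12 to 5.88 ± 0.44 (-3.27 ± 0.16). The lipase Mgll (-3.20 ± 0.15), the inhibitor of transcription Id3 (-3.15 ± 0.22), the pantetheinase Vnn1 (-3.15 ± 0.17), the secreted factor Ndnf (-3.13 ± 0.13) and the matrix protein Fndc1 (-3.04 ± 0.22) followed. Then came the Wnt antagonist Sfrp4 (-3.03 ± 0.18), the dystrophin partner Sntb1 (-3.02 ± 0.17), the creatine-making enzyme Gamt (-2.98 ± 0.18), collagen Col6a3 (-2.93 ± 0.13), the secreted Fam180a (-2.92 ± 0.21) and Olfml3 (-2.91 ± 0.20), the matrix proteins Igsf10 (-2.86 ± 0.22) and Adamtsl2 (-2.79 ± 0.14), and the carboxylesterase Ces1d (-2.79 ± 0.25). At serotonin titled 1, which shares its controls with this comparison, Gper1 was at -0.36 ± 0.16, Mgll at -0.06 ± 0.15, Trib3 at 0.06 ± 0.11 and Cpox at -0.03 ± 0.09, none of them called.

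**Figure D2:**
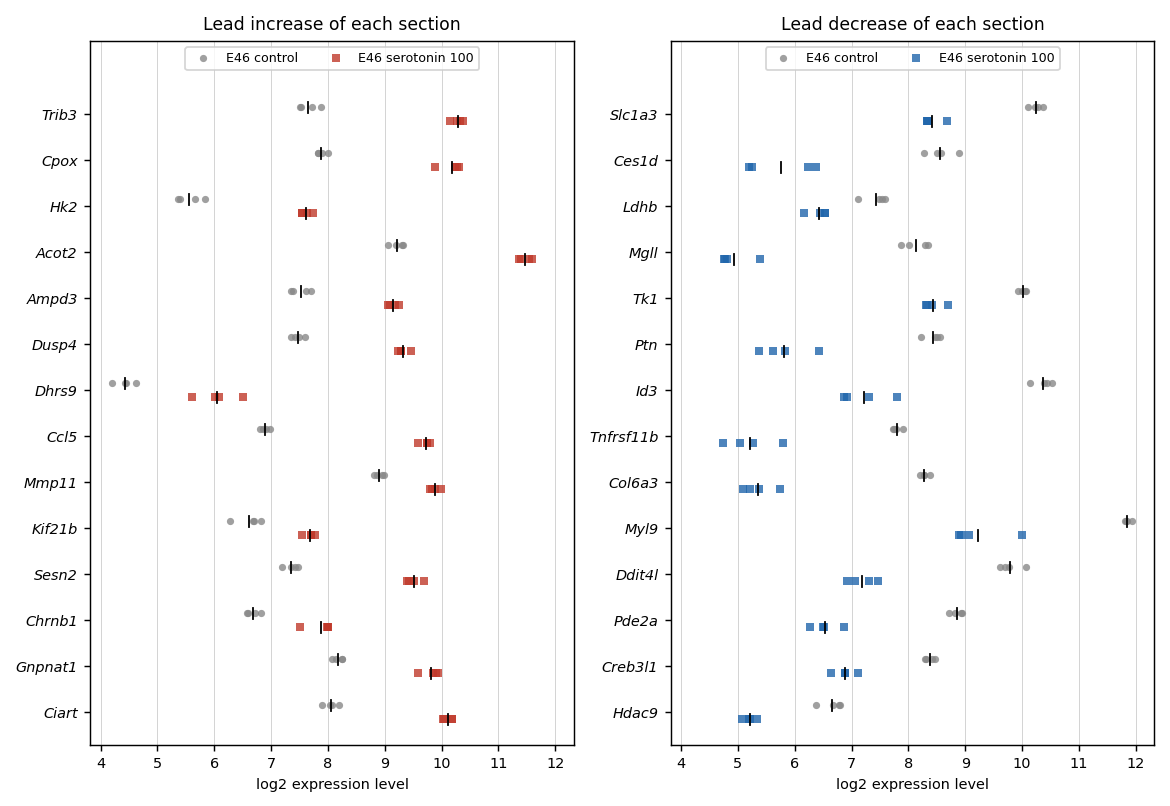
Level in each array (log2, horizontal axis) of the gene with the largest called increase (left) and decrease (right) of each of the 14 sections outside the 10 largest changes, E46 controls as grey circles, E46 serotonin 100 as coloured squares, 4 arrays each, with the mean as a vertical bar. The groups do not overlap for any of the 28 genes, by the rule that chose them, and Myl9 with serotonin shows replicate 1 at 10.00 against 8.88 to 9.06.

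The 18 measured regulators of the integrated stress response held 13 that rose and 1 that fell, with a median change of 0.77. Atf4 itself, whose protein is mainly controlled at translation, rose by 0.73 ± 0.07. Trib3, a pseudokinase that is switched on by ATF4 and feeds back on it, lay at 7.52, 7.88, 7.51 and 7.72 in the controls and at 10.14, 10.33, 10.38 and 10.28 with serotonin. Every serotonin array thus lay at least 2.26 above every control, with a spread of 0.24 within the serotonin group (change 2.62 ± 0.11, adjusted p = 4.63e-13). In A2/12 the change was 2.96 ± 0.11, and the difference between the lines was not called (-0.34 ± 0.15, adjusted p = 0.132). Sesn2, which restrains mTORC1 when leucine is short, lay at 7.19, 7.42, 7.48 and 7.35 in the controls and at 9.40, 9.43, 9.69 and 9.51 with serotonin (2.15 ± 0.11, adjusted p = 5.91e-12). It rose by 1.65 ± 0.11 in A2/12, a difference of 0.50 ± 0.16 (adjusted p = 0.0255). The genes given array by array, here and below, were chosen among those whose groups do not overlap, so their lack of overlap is no result. Of all genes tested 21.0% lay apart and higher and 19.4% apart and lower. The ER-stress kinase Eif2ak3 was at -0.28 ± 0.10. It was called lower in the main fit, made on all arrays of the study (adjusted p = 0.0318). The call was lost without control replicate 2 (adjusted p = 0.0799), 3 (0.0673) or 4 (0.0864), and without serotonin replicate 1 (0.087) or 2 (0.0808). It was also lost with median centring (0.0896) and with the row letter as a block (change -0.45).

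The letters TGATGNAA, a composite site for C/EBP and ATF proteins (CARE), were searched on both strands in the 250 bases before gene starts in RefSeq promoters of the mouse build GRCm38.p6. They occur in 2.67% of the 18155 windows of the genes tested, in 4.51% of the 421 windows of genes that rose at least 2-fold and in 1.18% of the 762 of genes that fell at least 2-fold. Of the regulators 5 of 18 windows hold them (27.8%), and of the cytosolic synthetases below 2 of 10. Of the lists of amino acid supply, the transporters have it in 1 of 28 windows (3.57%) and the enzymes of serine and related synthesis in 2 of 19 (10.5%). No match lies in the 33 windows of the nucleolar list. A match is a run of letters and no measured site. The matches of these lists and of the amino acid lists below are shown 5′ to 3′ on the gene's strand, with up to 30 bases on each side and the match in capitals, because they let the reader set sequence beside change. The genes were chosen by the match, with their values known.
Atf3 (chr1:191183406-191183473, minus strand): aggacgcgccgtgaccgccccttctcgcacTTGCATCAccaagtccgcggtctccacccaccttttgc
Chac1 (chr2:119351019-119351086, plus strand): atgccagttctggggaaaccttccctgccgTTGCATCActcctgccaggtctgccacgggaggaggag
Nupr1 (chr7:126625543-126625610, minus strand): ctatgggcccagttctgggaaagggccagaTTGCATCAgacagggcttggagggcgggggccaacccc
Vldlr (chr19:27216790-27216857, plus strand): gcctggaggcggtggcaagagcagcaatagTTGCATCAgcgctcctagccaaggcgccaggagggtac
Fgf21 (chr7:45615592-45615659, minus strand): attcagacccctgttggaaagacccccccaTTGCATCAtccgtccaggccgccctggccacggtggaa
Gars (chr6:55037941-55038000, plus strand): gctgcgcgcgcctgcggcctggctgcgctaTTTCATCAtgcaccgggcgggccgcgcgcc
Tars (chr15:11399659-11399703, minus strand): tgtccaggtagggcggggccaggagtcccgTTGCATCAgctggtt
Slc7a11 (chr3:50443623-50443709, minus strand): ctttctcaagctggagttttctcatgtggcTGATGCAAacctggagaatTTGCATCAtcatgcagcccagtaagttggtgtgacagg
Asns (chr6:7693210-7693262, minus strand): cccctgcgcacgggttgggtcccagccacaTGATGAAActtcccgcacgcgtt
Got1 (chr19:43524670-43524737, minus strand): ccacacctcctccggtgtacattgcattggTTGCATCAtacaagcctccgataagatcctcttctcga
Of these 10 genes 9 rose: Chac1, which degrades glutathione, by 1.69 ± 0.08, Nupr1, a stress-induced chromatin protein, by 0.94 ± 0.06, Vldlr, a lipoprotein receptor, by 0.65 ± 0.08, and Got1, the cytosolic aspartate aminotransferase, by 1.28 ± 0.08. The hormone gene Fgf21 was at -0.04 ± 0.09 (adjusted p = 0.797) with a level of 5.04 ± 0.03 in controls. Slc7a11 holds 2 matches, and its change of 3.17 ± 0.14 was near that of Atf3, 3.23 ± 0.11, with 1 match. The 9 of 10 stand beside lists that mostly rose, with or without a match. Of all measured regulators 72.2% rose, of the cytosolic synthetases 94.1%, of the transporters 60.7% and of the serine and related enzymes 85.0%. Of all genes tested 20.3% rose. Whether a match goes with a rise was not tested.

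The cytosolic aminoacyl-tRNA synthetases charge each tRNA with its amino acid. Of 17 measured, 16 rose, with a median of 1.04, and 9 of them at least doubled. They include Wars (1.55 ± 0.07) for tryptophan, Eprs (1.31 ± 0.08) for glutamate and proline, Lars (1.31 ± 0.07) for leucine, Vars (1.28 ± 0.07) for valine and Gars (1.22 ± 0.06) for glycine. The enzymes for glutamine (Qars, 0.21 ± 0.07), lysine (Kars, 0.33 ± 0.07), phenylalanine (Farsa, 0.48 ± 0.08) and arginine (Rars, 0.57 ± 0.08), named after their values were seen, were called with smaller changes, but the calls of Qars, Kars and Farsa did not hold with the row letter as a block (changes of 0.11, 0.19 and 0.42, adjusted p = 0.64, 0.334 and 0.0517). Hars, for histidine, was not called (0.14 ± 0.07, adjusted p = 0.141), but was called without serotonin replicate 1 (0.19, adjusted p = 0.0458) and with median centring (0.26, adjusted p = 0.00915). In A2/12 the list had a median of 1.01, with Hars at 0.14 ± 0.07 and Qars at 0.19 ± 0.07. Of 16 mitochondrial synthetases 10 rose and 1 fell (6 rose with the row letter as a block), with a median of 0.39. Nars2 (1.22 ± 0.15) and Yars2 (0.96 ± 0.10) led, and Lars2 was at 0.10 ± 0.12 (adjusted p = 0.549), called with median centring (0.23, adjusted p = 0.0325).

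Of 28 amino acid transporters 17 rose and 7 fell (13 and 4 with the row letter as a block). Those that rose carry cationic amino acids (Slc7a3, 2.20 ± 0.15, and Slc7a1, 1.53 ± 0.10), glutamine and other neutral amino acids (Slc1a5, 1.49 ± 0.09) and large neutral amino acids (Slc7a5, 1.11 ± 0.07, and its partner Slc3a2, 0.49 ± 0.05). The glial glutamate carriers moved the other way. Slc1a3, which clears glutamate, lay at 10.23, 10.36, 10.10 and 10.27 in the controls and at 8.67, 8.34, 8.33 and 8.32 with serotonin. Serotonin replicate 1 was the least lowered array and still lay 1.43 below the lowest control (-1.82 ± 0.13, adjusted p = 2.64e-10). In A2/12 it fell by less, -0.92 ± 0.13, and the difference was called (-0.90 ± 0.18, adjusted p = 0.000698). Slc1a2 (-1.54 ± 0.11), the cationic carrier Slc7a2 (-1.45 ± 0.10) and the taurine carrier Slc6a6 (-1.32 ± 0.07) fell too. In the making of serine, glycine, asparagine, proline and folate-bound carbon units 17 of 20 genes rose and 2 fell, with a median of 0.89. The alanine aminotransferase Gpt2 (1.68 ± 0.08), the mitochondrial folate enzymes Aldh1l2 (1.62 ± 0.08), Mthfd2 (1.46 ± 0.09) and Shmt2 (1.29 ± 0.06), asparagine synthetase Asns (1.16 ± 0.07) and Phgdh (0.93 ± 0.07), which opens serine synthesis, were among them. Glul, glutamine synthetase and a further glial enzyme, fell by 1.38 ± 0.07.

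The machinery of protein synthesis rose as well. Of 34 genes of nucleolar ribosome assembly 33 rose, 21 of them at least 2-fold, with a median of 1.10 against -0.00346 over all genes. Gnl3, nucleostemin, rose by 1.66 ± 0.09, the processing factors Rrp12 by 1.65 ± 0.09, Rrs1 by 1.61 ± 0.21 and Rrp9 by 1.56 ± 0.14, and the abundant nucleolar proteins Ncl and Fbl by 0.90 ± 0.08 and 0.64 ± 0.09. With the row letter as a block 32 of the 34 were called higher. Of 28 translation factors 26 rose and 1 fell, with a smaller median of 0.39, and 11 rose with the row letter as a block. Eif2b3, a subunit of the exchange factor that the integrated stress response inhibits, rose most (1.36 ± 0.09), followed by Eif2s2 (1.02 ± 0.11), the beta subunit of eIF2, and Eif5 (1.02 ± 0.08), its GTPase activator. Of 6 measured host genes of small nucleolar RNAs 5 rose and 1 fell, with a median of 0.83. At serotonin titled 1 the median of these host genes was 0.45, and the arrays there ranged from 0.09 to 0.93. Snhg5 rose by 1.64 ± 0.08, and with the row letter as a block 1 of the 6 was called higher.

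Chaperones of the ER divided. Of 26 genes of ER folding and the unfolded protein response 10 rose and 11 fell, and the median was -0.00638. Those that rose included Ern1 (1.32 ± 0.08) and Atf6 (1.26 ± 0.10), sensors of misfolded protein, Ero1a (1.64 ± 0.10), which passes oxidizing equivalents to disulfide formation, and the chaperones Hyou1 (0.87 ± 0.07) and Hspa5 (0.60 ± 0.07). Those that fell included the disulfide isomerases Pdia6 (-0.59 ± 0.07) and P4hb (-0.58 ± 0.06), the co-chaperone Dnajb11 (-0.48 ± 0.07) and the translocon subunit Sec61b (-0.73 ± 0.14). Xbp1 was at 0.13 ± 0.07 (adjusted p = 0.179) and was called with median centring (0.25, adjusted p = 0.0205). With median centring 11 members were called higher and 5 lower.

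The ER stress element (ERSE) is CCAAT and CCACG with 9 bases of any kind between them, and is known from such genes. It occurs in 10 of the 23 promoter windows of the list (43.5%), against 0.11% of those of all genes tested. A pair of genes that rose and a pair that fell, chosen with their values known, show that the element occurs on either side.
Hspa5 (chr2:34771995-34772073, plus strand): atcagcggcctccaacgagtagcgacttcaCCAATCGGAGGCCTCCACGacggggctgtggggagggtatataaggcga
Ero1b (chr13:12565652-12565730, plus strand): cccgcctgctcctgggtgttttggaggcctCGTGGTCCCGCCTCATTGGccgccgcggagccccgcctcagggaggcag
Pdia6 (chr12:17266461-17266539, plus strand): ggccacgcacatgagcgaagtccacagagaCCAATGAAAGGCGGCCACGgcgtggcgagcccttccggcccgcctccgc
Creld2 (chr15:88819490-88819568, plus strand): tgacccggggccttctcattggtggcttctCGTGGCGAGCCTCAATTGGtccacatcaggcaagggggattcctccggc
Of the 10 genes with a match, Hspa5 and the oxidase Ero1b (0.83 ± 0.10) rose, and Calr (-0.26 ± 0.07), Pdia6, Dnajc3 (-0.28 ± 0.10) and Creld2 (-0.47 ± 0.07) fell. The calls of Calr and Dnajc3 did not hold with the row letter as a block (changes of -0.32 and -0.30, adjusted p = 0.114 and 0.18) or median centring (0.146 and 0.222). That of Dnajc3 was also lost without control replicate 2 (0.0889) or 3 (0.103) or serotonin replicate 1 (0.0842), 2 (0.0865) or 3 (0.0555). The changes of Hsp90b1 (0.03 ± 0.09), Canx (0.09 ± 0.07), Syvn1 (-0.05 ± 0.07) and Derl3 (-0.04 ± 0.09) were not called.

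Of 18 cytosolic and mitochondrial heat shock genes 11 rose and 4 fell (4 and 4 with the row letter as a block). The chaperonins Hspd1 (1.03 ± 0.12) and Hspe1 (0.73 ± 0.09), which work in mitochondria, and the HSP110 member Hsph1 (0.92 ± 0.10) rose, while the small heat shock protein Hspb1 (-1.12 ± 0.12), Dnajb4 (-0.79 ± 0.10) and Bag3 (-0.76 ± 0.08), which serve the actin cytoskeleton and aggregate clearance, fell. Of 30 proteasome subunits 12 rose and 4 fell, with no change as large as 2-fold, a median of 0.07, and Psmc6 at 0.62 ± 0.11 (adjusted p = 6.68e-05), and at 0.45 (adjusted p = 0.122) with the row letter as a block. With the row letter as a block 1 of the 30 was called in each direction.

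Genes of redox defence moved in both directions. Of 28 genes of cystine supply, transsulfuration and glutathione 10 rose and 10 fell. The glutathione-making Gclc (1.90 ± 0.08), Gclm (1.51 ± 0.07) and Gss (0.31 ± 0.09; not called with the row letter as a block, 0.11) and the transferase Gsta4 (1.80 ± 0.10) rose. The transferases Mgst3 (-2.36 ± 0.16), Gstt1 (-2.36 ± 0.15) and Gstm2 (-1.03 ± 0.12) and the cysteine dioxygenase Cdo1 (-1.19 ± 0.11) fell. Of 24 thioredoxin, peroxiredoxin and NADPH genes 9 rose, led by thioredoxin reductase Txnrd1 (1.33 ± 0.08) and sulfiredoxin Srxn1 (1.28 ± 0.09), and 8 fell, led by the secreted superoxide dismutase Sod3 (-2.45 ± 0.20), Idh1 (-1.39 ± 0.14), Sesn1 (-1.34 ± 0.08) and Txnip (-1.32 ± 0.11). Among 24 genes linked to the oxidant sensor NRF2, 12 rose and 8 fell. The quinone reductase Nqo1 (1.75 ± 0.09) and the small Maf partners Maff (1.48 ± 0.11) and Mafg (1.15 ± 0.09) were higher, and the gene of NRF2 itself, Nfe2l2, rose by 0.40 ± 0.07. The carboxylesterase Ces1d, which hydrolyses esters of drugs and lipids, lay at 8.27, 8.58, 8.88 and 8.50 in the controls and at 6.38, 5.25, 5.20 and 6.23 with serotonin. The serotonin arrays fell into a lower pair and a higher pair, all below the controls (-2.79 ± 0.25, adjusted p = 1.19e-08). In A2/12 it was at -0.19 ± 0.25, not called, and the lines differed (-2.60 ± 0.36, adjusted p = 1.13e-05).

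The aryl hydrocarbon receptor gene Ahr fell by 1.28 ± 0.09, while its targets Nqo1, Aldh3a1 (0.83 ± 0.11) and Cyp1b1 (0.75 ± 0.09) rose. Of the 12 measured genes of that list 5 lay above background, 4 rose and 1 fell. In iron and heme handling 12 of 26 genes rose and 4 fell (6 and 1 with the row letter as a block). Cpox, which makes protoporphyrinogen on the way to heme, lay at 7.82, 7.90, 8.00 and 7.83 in the controls and at 9.89, 10.31, 10.23 and 10.28 with serotonin. Serotonin replicate 1 was the lowest of its group, at 9.89, and all 4 stood above the controls (2.29 ± 0.09, adjusted p = 3.76e-13). A2/12 rose by 0.93 ± 0.09, a difference of 1.36 ± 0.13 (adjusted p = 1.1e-07). The metal reductase Steap1 (2.02 ± 0.09), the mitochondrial iron importer Slc25a37 (1.47 ± 0.10) and the transferrin receptor Tfrc (1.21 ± 0.13) rose. Among 27 zinc and copper genes 9 rose and 5 fell: the zinc exporter Slc30a1 rose by 1.62 ± 0.15, and the Golgi zinc carrier Slc39a13 (-1.60 ± 0.11) and the ferroxidase Cp (-1.10 ± 0.11) fell. The metallothionein Mt2 rose by 0.35 ± 0.07, and Mt1 (0.30 ± 0.07) was called but not with the row letter as a block (0.34). Of 28 ABC exporters and organic anion carriers 5 rose and 7 fell, near the shares of all genes. The exporter Abcc1 rose by 0.76 ± 0.07, and the organic anion carrier Slco3a1 (-1.72 ± 0.11) and the lipid exporter Abca8a (-1.43 ± 0.15) fell. Without control replicate 1, or without serotonin replicate 4, 3 of the 28 were called higher.

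Of 29 measured glycolytic genes 14 fell and 5 rose (9 and 3 with the row letter as a block), with a median of -0.25. Hk2, the inducible hexokinase, lay at 5.37, 5.83, 5.66 and 5.39 in the controls and at 7.55, 7.64, 7.73 and 7.54 with serotonin. The groups were at least 1.71 apart (2.05 ± 0.12, adjusted p = 2.04e-11), and the gene rose in A2/12 by 1.55 ± 0.12, a difference of 0.50 ± 0.17 (adjusted p = 0.0336). The lactate carrier Slc16a1 (1.40 ± 0.08) and the mitochondrial Pck2 (1.01 ± 0.08), which makes phosphoenolpyruvate, rose too. Ldhb, a subunit of lactate dehydrogenase, lay at 7.12, 7.53, 7.59 and 7.49 in the controls and at 6.54, 6.17, 6.54 and 6.44 with serotonin. Control replicate 1 was the lowest control at 7.12, and still stood 0.58 above the highest serotonin array (-1.01 ± 0.12, adjusted p = 5.3e-07). A2/12 was at -0.99 ± 0.12, and the difference was not called (adjusted p = 0.964). Ldha (-0.70 ± 0.06) and the constitutive hexokinase Hk1 (-0.72 ± 0.07) fell.

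Inside mitochondria, subunits of the respiratory chain and genes of protein making differed in direction. Of 33 respiratory subunits 14 fell, with a median of -0.20, and 7 fell with the row letter as a block and 9 with median centring. Ndufa4 (-0.79 ± 0.08) and Ndufa8 (-0.60 ± 0.12) fell in both fits. Of 37 mitochondrial ribosomal proteins 24 rose and 1 fell, with a median of 0.33 (12 and 1 with the row letter as a block), Mrps18b (0.87 ± 0.08) and Mrps30 (0.72 ± 0.11) leading and Mrpl18 falling by 0.76 ± 0.07. In mitochondrial stress and quality control 16 of 26 rose and 3 fell (9 and 3 with the row letter as a block). The chaperones Dnaja3 (1.54 ± 0.08) and Hspa9 (1.30 ± 0.08) and the protease Lonp1 (1.51 ± 0.07) rose, and Ppargc1a (-0.85 ± 0.10), a coactivator of mitochondrial genes, fell. Of 23 genes of the tricarboxylic acid cycle and pyruvate entry 5 rose and 6 fell (4 and 2 with the row letter as a block), with citrate synthase Cs at 0.11 ± 0.06 (adjusted p = 0.134), Suclg2 at 0.88 ± 0.08 and Mdh1 at -0.78 ± 0.07. Cs was called higher with quantile normalization (0.16, adjusted p = 0.00661) and median centring (0.24, adjusted p = 0.0131). The shares of the cycle list in the main fit, 21.7% higher and 26.1% lower, stand against 20.3% and 19.3% of all genes.

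Of 18 enzymes of cholesterol synthesis 17 fell, 11 of them at least 2-fold, and the median was -1.06. In pathway order, all members being given with their values known, the change was -1.65 ± 0.10 for Hmgcs1, which makes HMG-CoA, -1.36 ± 0.09 for the mevalonate kinase Mvk, -1.08 ± 0.09 for Pmvk and -0.56 ± 0.09 for Mvd. It was -1.44 ± 0.12 for Idi1, the isomerase of isoprene units, -1.04 ± 0.09 for Fdps and -0.59 ± 0.09 for Fdft1, where the branch to sterols begins. Ggps1, which leads off to protein prenylation instead, was at 0.24 ± 0.10 (adjusted p = 0.0587), and was called higher without control replicate 2 (0.32, adjusted p = 0.018) and with median centring (0.37, adjusted p = 0.00436). With the row letter as a block Fdft1 was not called (change -0.49, adjusted p = 0.0547). After squalene the changes were -1.06 ± 0.08 for Sqle, -0.71 ± 0.07 for Lss, -1.0 ± 0.07 for Cyp51, -2.09 ± 0.11 for Tm7sf2, -0.67 ± 0.07 for Msmo1 and -1.09 ± 0.07 for Nsdhl. The last steps, Hsd17b7 (-1.43 ± 0.10), Ebp (-1.07 ± 0.07), Sc5d (-0.58 ± 0.07) and Dhcr7 (-1.40 ± 0.07), were lower as well. In A2/12, with its own controls, the median of the list was -0.44, Ggps1 rose by 0.76 ± 0.10, and Dhcr7 was at -0.17 ± 0.07 and Sc5d at 0.08 ± 0.07, neither called. Mvd rose there by 0.24 ± 0.09.

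**Figure D3:**
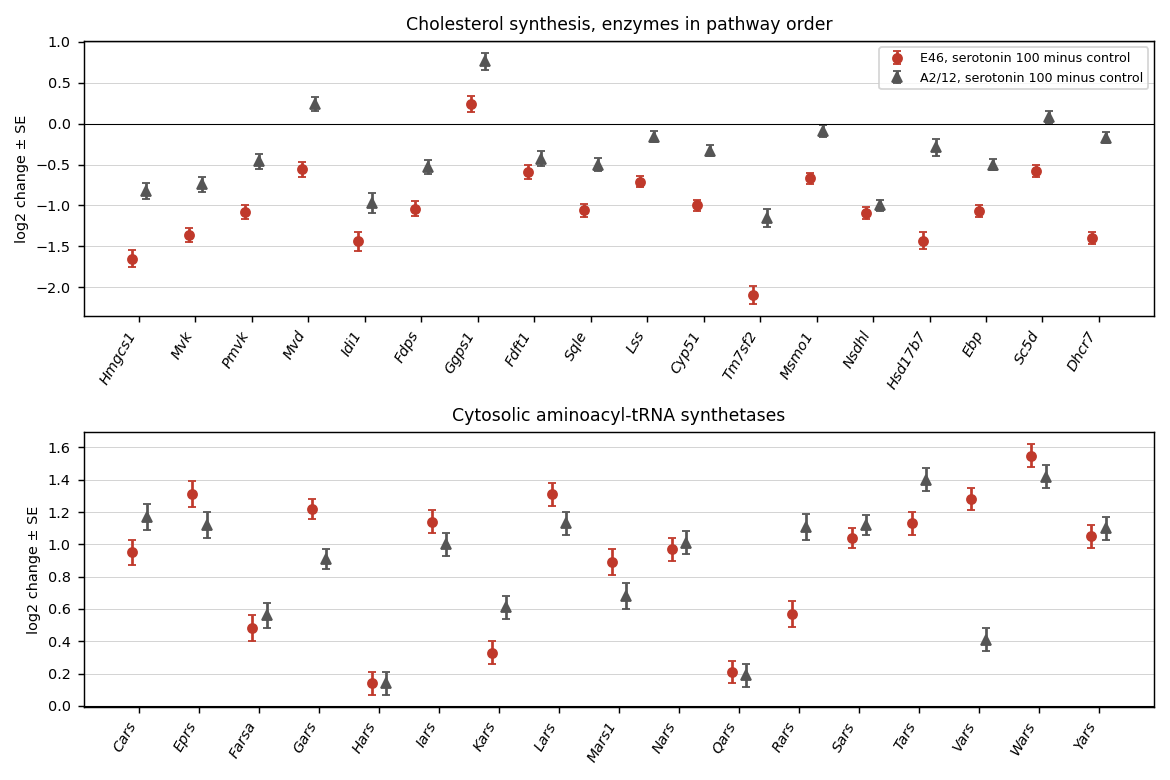
Log2 change, serotonin 100 minus control, ± SE (vertical axis) for 18 enzymes of cholesterol synthesis in pathway order (top) and 17 cytosolic aminoacyl-tRNA synthetases (bottom), E46 as red circles and A2/12 as grey triangles, each against its own 4 controls. All the sterol enzymes but Ggps1 lie below 0 in E46, from -0.56 to -2.09, and all the synthetases lie above 0, from 0.14 to 1.55.

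A sterol element with the letters TCACCCCAC (SRE) was found in 1 of the 18 promoter windows of these enzymes, in Hmgcs1, against 0.507% of the windows of all genes tested. It is shown because Hmgcs1 stands at the head of the pathway.
Hmgcs1 (chr13:119690184-119690252, plus strand): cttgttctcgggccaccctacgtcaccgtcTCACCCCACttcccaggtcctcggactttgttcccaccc
These exact letters are not in the other 17 windows. Among 23 genes of sterol sensing, uptake and efflux 6 rose and 9 fell (2 and 8 with the row letter as a block). The transcription factor gene Srebf2, which drives the pathway, fell by 0.51 ± 0.06, the sterol carrier Stard4 by 1.22 ± 0.07 and the exporter Abca1 by 0.71 ± 0.10. The lysosomal cholesterol exporter Npc1 (0.88 ± 0.06) and the oxysterol-making Cyp27a1 (0.71 ± 0.11) rose.

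Of 27 genes of fatty acid synthesis, desaturation and elongation 9 fell and 4 rose (8 and 2 with the row letter as a block). The elongase Elovl6 (-1.63 ± 0.08), the acetyl-CoA maker Acss2 (-1.53 ± 0.10), the desaturases Scd2 (-0.76 ± 0.07) and Fads2 (-0.60 ± 0.06) and the synthase Fasn (-0.59 ± 0.07) fell. In fatty acid oxidation 12 of 32 fell and 7 rose (7 and 2 with the row letter as a block). Cpt1a, which admits fatty acids to mitochondria, fell by 1.48 ± 0.12 and the dehydrogenase Acadm by 1.15 ± 0.12. Acot2, a mitochondrial thioesterase that frees fatty acids from CoA, lay at 9.05, 9.19, 9.31 and 9.32 in the controls and at 11.39, 11.60, 11.37 and 11.53 with serotonin. The lowest serotonin array stood 2.05 above the highest control (2.25 ± 0.10, adjusted p = 6.93e-13), and A2/12 rose by 2.48 ± 0.10 (difference -0.23 ± 0.14, adjusted p = 0.281). Mgll, the lipase of monoglycerides and of the endocannabinoid 2-AG, lay at 7.87, 8.29, 8.01 and 8.34 in the controls and at 5.39, 4.78, 4.80 and 4.75 with serotonin. Serotonin replicate 1 was at 5.39 and the other 3 lay between 4.75 and 4.80 (-3.20 ± 0.15, adjusted p = 2.54e-12). In A2/12 the change was -0.01 ± 0.15, and the lines differed by -3.19 ± 0.22 (adjusted p = 1.09e-09). In the wider list of lipid droplets and lipoproteins 8 of 31 rose and 10 fell (4 and 9 with the row letter as a block): Hilpda (0.97 ± 0.13), a lipid droplet protein, and Dgat2 (0.89 ± 0.13), which makes triglyceride, rose, and Plin4 (-1.41 ± 0.11) and the lipoprotein lipase Lpl (-1.32 ± 0.25) fell. Of 34 genes of sphingolipids and phospholipids 12 rose and 6 fell (5 and 5 with the row letter as a block), with the choline kinase Chka at 1.30 ± 0.13 and the phospholipase Pla2g7 at -1.44 ± 0.12.

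Of 34 genes of purine and pyrimidine synthesis 17 rose and 12 fell (9 and 9 with the row letter as a block). Cad, which opens pyrimidine synthesis, rose by 0.96 ± 0.08. Ampd3, an AMP deaminase, lay at 7.36, 7.71, 7.39 and 7.62 in the controls and at 9.05, 9.26, 9.18 and 9.09 with serotonin, with 1.34 between the groups (1.62 ± 0.14, adjusted p = 4.41e-09). Its rise in A2/12 was smaller, 0.90 ± 0.14 (difference 0.72 ± 0.19, adjusted p = 0.00862). Tk1, the thymidine kinase of dividing cells, lay at 9.93, 10.05, 9.99 and 10.06 in the controls and at 8.70, 8.42, 8.33 and 8.30 with serotonin. Controls spanned 0.13 and all serotonin arrays were at least 1.23 lower (-1.57 ± 0.08, adjusted p = 9.78e-12), with -1.54 ± 0.08 in A2/12 (difference not called, adjusted p = 0.914). The ecto-nucleotidase Nt5e (-1.34 ± 0.13) and cytidine deaminase Cda (-1.27 ± 0.09) fell. In polyamine metabolism 5 of 14 rose and 3 fell: spermidine synthase Srm (1.07 ± 0.07) and ornithine decarboxylase Odc1 (0.68 ± 0.07) on the making side and Smox (0.87 ± 0.11) and Sat1 (0.69 ± 0.08) on the breakdown side rose together.

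Of 40 ligands and receptors of the EGF, FGF, VEGF, PDGF and HGF families 24 fell and 5 rose (18 and 2 with the row letter as a block), with a median of -0.37. The receptor Egfr fell by 1.94 ± 0.10, and the ligands Pdgfb by 2.22 ± 0.13 and Vegfd by 1.88 ± 0.16. Gas6, a ligand of the TAM receptors that the list also holds, fell by 2.07 ± 0.13. The angiogenic ligand Vegfa (1.38 ± 0.10) and the receptor Met (0.54 ± 0.09) rose. In the IGF system 9 of 23 fell and 4 rose (6 and 2 with the row letter as a block): the adaptor Irs1 (-1.54 ± 0.11) and the binding proteins Igfbp7 (-1.79 ± 0.09) and Igfbp3 (-1.24 ± 0.12) fell and Igfbp4 rose (1.16 ± 0.13). Ptn, pleiotrophin, a heparin-binding growth factor, lay at 8.22, 8.46, 8.55 and 8.51 in the controls and at 6.42, 5.37, 5.62 and 5.82 with serotonin. Serotonin replicate 1 was the highest of its group, at 6.42, and 1.80 below the lowest control (-2.63 ± 0.14, adjusted p = 1.37e-11). In A2/12 it fell by 2.32 ± 0.14 (difference -0.31 ± 0.20, adjusted p = 0.348). The neurotrophic factor Gdnf rose by 1.47 ± 0.13, and the receptors Gfra2 (-1.47 ± 0.13) and Lifr (-1.41 ± 0.12) fell.

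Immediate early genes showed no common direction, with 8 of 32 higher and 9 lower, near the shares of all genes (20.3% and 19.3%). Myc (1.72 ± 0.07), Ier3 (1.30 ± 0.10) and Nr4a2 (0.99 ± 0.11) rose, Egr3 (-1.43 ± 0.15), Klf10 (-1.0 ± 0.10) and Egr2 (-0.86 ± 0.12) fell, and Egr1 was at 0.04 ± 0.08 (adjusted p = 0.748). Among feedback inhibitors of MAP kinase signalling 7 of 24 rose and 6 fell, also near the shares of all genes. Dusp4, a nuclear phosphatase of ERK, lay at 7.43, 7.50, 7.36 and 7.60 in the controls and at 9.28, 9.24, 9.47 and 9.29 with serotonin. The gap between the groups was 1.64 (1.85 ± 0.13, adjusted p = 2.91e-10), and in A2/12 the change was 2.31 ± 0.13 (difference -0.47 ± 0.18, adjusted p = 0.0758). The ERK-responsive factor Etv5 (1.32 ± 0.08) and Spry4 (0.87 ± 0.10) rose, while Dusp14 (-1.48 ± 0.09) and Etv1 (-1.20 ± 0.12) fell. Of 30 genes of FOXO, mTOR and energy sensing 16 rose and 7 fell. With the row letter as a block 3 rose and 5 fell, and without control replicate 4, or without serotonin replicate 2, 4 fell. The lysosomal GTPase Rragd (1.28 ± 0.12) and the AMP kinase subunit Prkaa2 (1.07 ± 0.15) rose, and the arginine sensor Castor2 (-1.31 ± 0.11) fell.

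Each of the developmental pathways examined had more members lower than higher. Of 40 TGF-beta, BMP and activin genes 25 fell and 3 rose, with a median of -0.65. Id3, a dominant-negative helix-loop-helix protein, lay at 10.14, 10.43, 10.39 and 10.53 in the controls and at 7.79, 6.86, 6.91 and 7.31 with serotonin. Serotonin replicate 1 was again the highest of its group and lay 2.35 below the lowest control (-3.15 ± 0.22, adjusted p = 3.43e-10). The fall was larger in A2/12, -4.21 ± 0.22 (difference 1.06 ± 0.31, adjusted p = 0.0172). Id2 (-2.15 ± 0.23) and Id4 (-1.93 ± 0.13) fell, as did the ligands Tgfb3 (-2.67 ± 0.14) and Tgfb1 (-0.70 ± 0.08), while the BMP antagonist Grem1 rose by 0.75 ± 0.10. Of 50 Wnt genes 33 fell and 1, the receptor-removing ubiquitin ligase Znrf3 (0.47 ± 0.11), rose, though not called with the row letter as a block (0.29, adjusted p = 0.343). The secreted antagonists Sfrp1 (-2.33 ± 0.31) and Sfrp2 (-2.23 ± 0.48), the stem cell receptor Lgr5 (-2.14 ± 0.12), the target gene Axin2 (-0.72 ± 0.17) and beta-catenin, Ctnnb1 (-0.38 ± 0.06), were among those that fell.

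Of 28 Notch genes 16 fell and 2 rose. The glycosyltransferase Lfng, which tunes ligand choice, fell by 2.44 ± 0.10, the ligand Jag1 by 1.00 ± 0.09, the receptor Notch1 by 0.57 ± 0.08 and the target Hes1 by 1.37 ± 0.09. Of 19 Hedgehog genes 10 fell (6 with the row letter as a block), with the effector and target Gli1 at -2.05 ± 0.12, the receptor Ptch1 at -0.92 ± 0.08 and the co-receptor Gas1 at -1.36 ± 0.22. Among 26 targets of YAP and TEAD 16 fell and 5 rose: Ccn2 fell by 2.03 ± 0.12 and the scaffold Amot by 1.53 ± 0.10, but Ccn1 was at 0.06 ± 0.11 (adjusted p = 0.727) and the clotting initiator F3 rose by 0.69 ± 0.07. In retinoid and alcohol oxidation 6 of 24 rose and 11 fell. Dhrs9, a retinol dehydrogenase, lay at 4.43, 4.62, 4.44 and 4.21 in the controls and at 5.61, 6.08, 6.50 and 6.01 with serotonin. Its controls were near the background, so the fold is a compressed value (1.62 ± 0.19, adjusted p = 5.63e-07). In A2/12 it was at -0.32 ± 0.19, not called (difference 1.94 ± 0.27, adjusted p = 1.49e-05). The retinoid-binding Crabp1 (-2.42 ± 0.17), Dhrs3 (-1.76 ± 0.09), the retinal oxidase Aldh1a3 (-1.42 ± 0.10) and the retinol receptor Stra6 (-1.31 ± 0.13) fell.

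Over all immune lists 27.4% of the measured genes rose and 24.9% fell, against 20.3% and 19.3% of all genes. Of 43 chemokines, cytokines and receptors 10 rose (23.3%) and 14 fell (32.6%). Ccl5, which draws T cells and monocytes, lay at 6.81, 6.92, 6.85 and 6.99 in the controls and at 9.75, 9.80, 9.59 and 9.75 with serotonin. Both groups were tight, with 2.60 between them (2.83 ± 0.11, adjusted p = 1.95e-13), and the rise in A2/12 was 0.70 ± 0.11 (difference 2.13 ± 0.15, adjusted p = 2.49e-09). The chemokines Cxcl1 (1.30 ± 0.10), Ccl7 (1.09 ± 0.11) and Ccl2 (0.97 ± 0.08) rose. The cytokines Il6 (-1.33 ± 0.21) and Il15 (-1.86 ± 0.10) and the membrane chemokine Cx3cl1 (-1.37 ± 0.12) fell. In the TNF family 10 of 36 rose and 6 fell (6 higher without serotonin replicate 3, and 6 with the row letter as a block). The family's shares in the main fit, 27.8% higher and 16.7% lower, were near those of all genes (20.3% and 19.3%). The death receptor Tnfrsf21 rose by 2.14 ± 0.10 and Tnfrsf10b by 0.87 ± 0.08. Tnfrsf11b, osteoprotegerin, a decoy for RANKL, lay at 7.91, 7.78, 7.73 and 7.75 in the controls and at 5.80, 5.04, 4.74 and 5.27 with serotonin. The serotonin arrays spread over 1.06 and stayed below the controls, which spread over 0.18 (-2.58 ± 0.15, adjusted p = 3.74e-11). The fall in A2/12 was -1.42 ± 0.15 (difference -1.15 ± 0.22, adjusted p = 0.000438). Of 26 NF-kB regulators (7 higher and 3 lower with the row letter as a block) 12 rose, among them Relb (1.13 ± 0.13), Tnfaip2 (1.05 ± 0.13) and Nfkb2 (0.77 ± 0.08), and 6 fell, among them the receptors Tlr2 (-0.54 ± 0.11) and Tlr4 (-0.48 ± 0.08). The inhibitor Nfkbia was at 0.01 ± 0.09 (adjusted p = 0.961).

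Of 50 interferon genes 20 rose and 11 fell, with a median of 0.19 (11 and 6 with the row letter as a block). Ifit1, which blocks translation of viral RNA, rose by 1.94 ± 0.12, Oasl2 by 1.62 ± 0.14, the regulator Usp18 by 1.56 ± 0.14 and the RNA sensor Ifih1 by 1.33 ± 0.15. The DNA-sensing adaptor Sting1 fell by 1.10 ± 0.08, Ifitm1 by 0.76 ± 0.10 and Irf7 was at 0.02 ± 0.18 (adjusted p = 0.949). An interferon response element (ISRE), GAAA and GAAA with 2 bases of any kind between them, occurs in 29.8% of the 47 promoter windows of this list, against 2.86% of those of all genes tested. Ifit1 and its neighbour Ifit3, chosen with their values known, are set side by side because each holds 2 matches while their measured changes had opposite signs. The pair does not stand for the list: the other genes with a match had changes from -0.57 to 0.74, most of them above 0.
Ifit1 (chr19:34640755-34640843, plus strand): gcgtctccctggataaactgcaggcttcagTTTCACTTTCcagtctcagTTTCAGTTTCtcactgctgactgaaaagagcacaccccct
Ifit3 (chr19:34583343-34583446, plus strand): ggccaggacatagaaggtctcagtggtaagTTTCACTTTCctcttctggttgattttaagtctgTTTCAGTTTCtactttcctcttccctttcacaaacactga
Ifit3 was called lower (-0.39 ± 0.13), but not with the row letter as a block (change -0.15, adjusted p = 0.739) or median centring (0.176). Its call was also lost without control replicate 2 (0.0665) or 3 (0.0508), or serotonin replicate 3 (0.088) or 4 (0.0582). Of 25 antigen presentation genes 3 rose and 9 fell (1 and 4 with the row letter as a block), with B2m at -0.03 ± 0.07 (adjusted p = 0.82) and the peptidase Erap1 at 0.97 ± 0.12. Of 29 complement and coagulation genes 8 fell (27.6%) and 4 rose (13.8%), against 19.3% and 20.3% of all genes. Among those that fell were the plasminogen activators Plau (-2.27 ± 0.12) and Plat (-1.49 ± 0.10), the chaperone clusterin, Clu (-1.77 ± 0.14), and C1s1 (-1.68 ± 0.16). The urokinase receptor Plaur (0.91 ± 0.10) was among those that rose. In the prostaglandin list 6 of 28 rose and 5 fell (3 and 4 with the row letter as a block), near the shares of all genes, with the inducible cyclooxygenase Ptgs2 at 1.96 ± 0.07 and the receptor Ptgfr at -1.35 ± 0.19.

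Of the 14 sections the matrix genes had the highest share of decreases. Over 7 lists with 214 measured genes 135 fell (63.1%), 65 of them at least 2-fold, and 5 rose (2.34%), against 19.3% and 20.3% of all genes. Of 36 collagen chains 22 fell, with a median of -0.64. The fibrillar chains Col1a1 (-2.41 ± 0.18) and Col3a1 (-2.45 ± 0.26) and the fibril-associated Col12a1 (-2.61 ± 0.16) and Col14a1 (-2.47 ± 0.12) fell by more than 2 units. Col6a3, of the beaded filaments around cells, lay at 8.37, 8.2, 8.27 and 8.27 in the controls and at 5.74, 5.37, 5.09 and 5.21 with serotonin. The controls spanned 0.17 and the serotonin arrays 0.65, with 2.46 between the groups (-2.93 ± 0.13, adjusted p = 7.88e-13). A2/12 fell by 2.41 ± 0.13 (difference -0.51 ± 0.18, adjusted p = 0.0444). Enzymes that modify collagen followed: of 26, 17 fell and 1 rose, such as the prolyl hydroxylase P4ha3 (-2.58 ± 0.15), the crosslinking oxidase Lox (-1.90 ± 0.12), the enhancer Pcolce (-1.62 ± 0.14) and the chaperone Serpinh1 (-0.58 ± 0.06).

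Of 16 small leucine-rich proteoglycans, which coat collagen fibrils, 10 fell and 1 rose, and 11 lay above background. Dcn, decorin, fell by 1.11 ± 0.17 and Bgn, biglycan, by 0.45 ± 0.06. The median was -0.97 in E46 and -1.99 in A2/12. Of 36 elastic fibre and other matrix glycoproteins 24 fell, with medians of -0.85 in E46 and -1.76 in A2/12: the calcification inhibitor Mgp fell by 2.33 ± 0.17 and Spon2 by 2.18 ± 0.15, while fibronectin, Fn1, was at 0.01 ± 0.06 (adjusted p = 0.943) and elastin, Eln, at -0.15 ± 0.11 (adjusted p = 0.327). Of 25 basement membrane genes 11 fell, such as the laminin chain Lama4 (-2.49 ± 0.18) and Npnt (-1.47 ± 0.12), with Lamc1 at -0.12 ± 0.07 (adjusted p = 0.196), called lower with quantile normalization (-0.14, adjusted p = 0.0475). Of 35 genes of proteoglycans, hyaluronan and heparan sulfate 25 fell, led by the hyaluronan synthase Has2 (-2.62 ± 0.22), glypican Gpc6 (-1.80 ± 0.15) and syndecan Sdc3 (-1.66 ± 0.11). Of 40 matrix proteases and inhibitors 26 fell and 2 rose. The gelatinase Mmp2 (-2.20 ± 0.15) and the inhibitor Timp1 (-1.33 ± 0.09) fell together. Mmp11, stromelysin-3, went the other way and lay at 8.81, 8.96, 8.87 and 8.98 in the controls and at 9.99, 9.79, 9.84 and 9.89 with serotonin. The groups were 0.81 apart (0.97 ± 0.09, adjusted p = 2.91e-08), and in A2/12 it was at -0.13 ± 0.09, not called (difference 1.10 ± 0.13, adjusted p = 2.16e-06).

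Markers of several cell types moved with these lists, and all fibroblast and mural markers that fell are themselves members of lists described here. Of the fibroblast and mural markers 8 of 10 lay above background in both groups, the same number fell, and their summed level (log2) went from 14.16 to 14.27 in controls to 12.21 to 12.88 with serotonin. Lum and Rgs5, defining genes of those cells, were at 3.55 ± 0.13 and 3.65 ± 0.09 in controls, within the background. The summed level of 10 neuron markers was 10.71 to 10.80 in controls and 9.29 to 9.65 with serotonin, with 3 called lower. Uchl1 (-0.38 ± 0.09) was among the 3, but its call was lost with the row letter as a block and with median centring. Levels were summed before the log, so strong genes weigh most, here Map2, at 10.43 in controls and 8.64 with serotonin. Rbfox3, Snap25, Nefl and Nefm, at background in controls, were not called. The summed level of 10 astrocyte markers was 11.77 to 11.87 and 11.20 to 11.38. For 8 oligodendrocyte markers it was 9.71 to 9.85 and 8.27 to 8.70, with 3 called lower, and for 8 endothelial markers 8.80 to 9.03 and 7.86 to 7.92, with 2 called lower and 1 higher. Of the oligodendrocyte and of the endothelial markers 4 of 8 lay above background in both groups. Apart from the 3 that fell, no oligodendrocyte marker was called. The part of a cell mixture in these changes was not tested, and in bulk RNA fewer cells of a type and less RNA per cell cannot be told apart. Of the astrocyte markers 7 fell and 1 rose, Fabp7 from 6.84 ± 0.03 to 4.56 ± 0.33 and the gap junction protein Gja1 from 9.84 ± 0.11 to 10.63 ± 0.04. Of 10 microglia and macrophage markers 3 lay above background in both groups, the defining P2ry12 and Adgre1 being within it (3.36 ± 0.14 and 3.60 ± 0.07). Their summed level was 9.08 to 9.30 in controls and 9.06 to 9.18 with serotonin, but Tmem119 fell from 7.62 ± 0.05 to 5.25 ± 0.33 (-2.37 ± 0.16) and Cd68 rose from 8.03 ± 0.18 to 8.63 ± 0.09 (0.60 ± 0.22, adjusted p = 0.0341). The call of Cd68 was lost with the row letter as a block (0.53, adjusted p = 0.0625) and without control replicate 1 (0.51, adjusted p = 0.106) or 4 (0.0596) or serotonin replicate 2 (0.0605), 3 (0.0679) or 4 (0.0752).

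**Figure D4:**
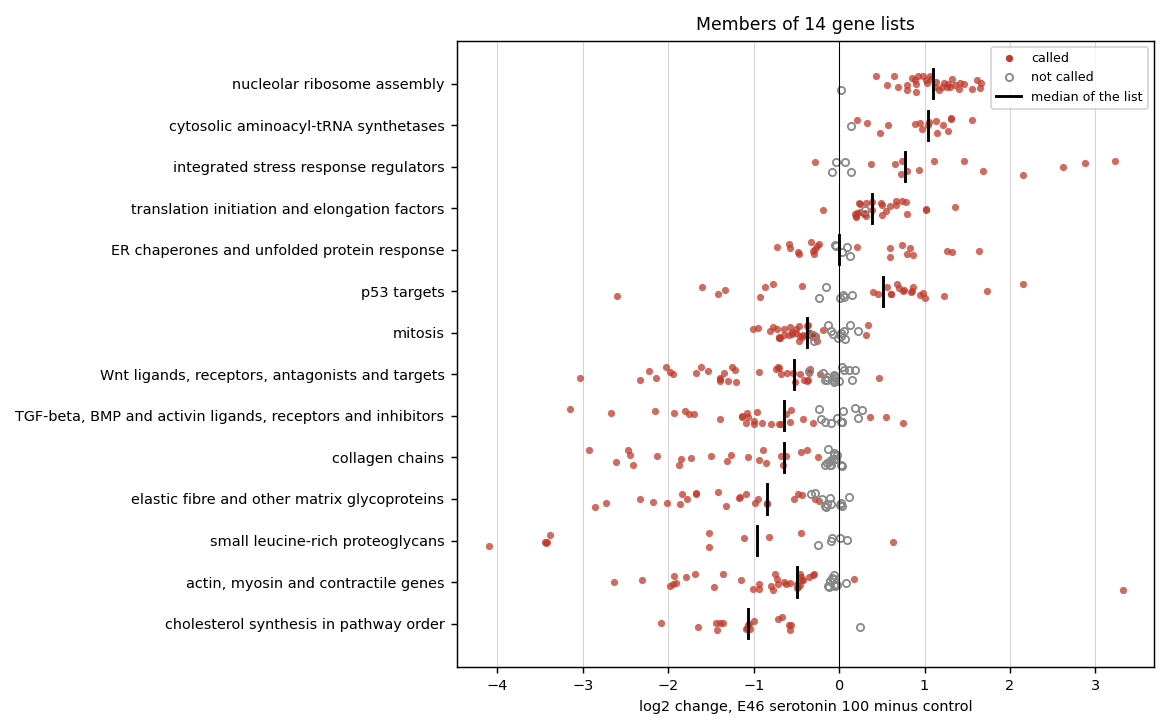
Log2 change (horizontal axis) of every measured member of 14 gene lists in E46, serotonin 100 minus control, called genes filled in red, genes not called as open grey circles, the median of each list as a black bar. The medians of nucleolar assembly (1.10) and cytosolic synthetases (1.04) lie above 0, that of cholesterol synthesis (-1.06) below, and the ER chaperones spread on both sides.

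The contractile cytoskeleton fell with the matrix. Of 45 actin, myosin and contractile genes 33 fell and 2 rose, with a median of -0.49. Myl9, the regulatory light chain of smooth muscle myosin, lay at 11.84, 11.94, 11.81 and 11.82 in the controls and at 10.00, 9.06, 8.88 and 8.92 with serotonin. Serotonin replicate 1 stood 0.94 above the next serotonin array and 1.81 below the lowest control (-2.64 ± 0.17, adjusted p = 1.22e-10). A2/12 fell by 0.79 ± 0.17 (difference -1.86 ± 0.24, adjusted p = 6.95e-06). The light chain kinase Mylk (-2.31 ± 0.13), smooth muscle actin Acta2 (-1.95 ± 0.13) and Tagln (-1.98 ± 0.10) fell. Of 34 integrin and focal adhesion genes 25 fell and 2 rose: the integrin chains Itga8 (-1.84 ± 0.10) and Itga1 (-1.56 ± 0.13), Itgb3 (-1.77 ± 0.15) and Itgav (-0.90 ± 0.08) fell and Itgb7 (0.80 ± 0.13) rose. Of 40 cadherins, protocadherins and gap junction genes 14 fell and 1 rose, Fat4 (-2.62 ± 0.14), Pcdh18 (-2.56 ± 0.13), Mcam (-2.28 ± 0.10) and Cdh2 (-0.79 ± 0.07) among those lower and Gja1 (0.79 ± 0.08) higher.

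Of 55 axon guidance genes 28 fell and 1 rose. The ephrin receptors Epha3 (-2.42 ± 0.15) and Epha4 (-1.82 ± 0.10), the netrin receptor Unc5c (-2.33 ± 0.16) and the secreted repellents Sema3c (-1.56 ± 0.12) and Sema3a (-1.23 ± 0.11) fell, and the netrin receptor Neo1 rose (0.46 ± 0.07). Of 43 tubulin, microtubule and neurofilament genes 21 fell and 2 rose. The neuronal tubulins Tubb2a (-1.75 ± 0.13), Tuba1a (-1.66 ± 0.14) and Tubb2b (-1.47 ± 0.10) fell with Map2 (-1.79 ± 0.10). Kif21b, a kinesin of neurons and lymphocytes, lay at 6.27, 6.82, 6.69 and 6.70 in the controls and at 7.54, 7.71, 7.70 and 7.77 with serotonin. Control replicate 1 was the lowest control at 6.27, and the groups were 0.72 apart (1.06 ± 0.13, adjusted p = 1.46e-06). A2/12 was at -0.20 ± 0.13, not called (difference 1.25 ± 0.19, adjusted p = 3.66e-05).

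Cell division genes were lower. Of 46 mitosis genes 32 fell and 2 rose, with a median of -0.37 (20 fell with the row letter as a block), and 1 fell by at least 2-fold. The proliferation marker Mki67 (-1.01 ± 0.10), the kinetochore proteins Spc25 (-0.95 ± 0.14) and Spc24 (-0.81 ± 0.13) and the kinase Plk1 (-0.77 ± 0.08) led. Of 37 cyclins, kinases and inhibitors 23 fell and 4 rose (18 and 2 with the row letter as a block): cyclin D1, Ccnd1, fell by 1.46 ± 0.08 and cyclin D2, Ccnd2, rose by 0.91 ± 0.10, and the inhibitors Cdkn2c (-1.53 ± 0.11) and Cdkn2d (-1.25 ± 0.13) fell. Of 44 genes of DNA replication and repair 9 rose and 12 fell (4 and 3 with the row letter as a block, 17 and 6 with median centring). In the main fit the shares of that list, 20.5% higher and 27.3% lower, stand against 20.3% and 19.3% of all genes. The checkpoint kinases Atr (1.31 ± 0.15) and Chek2 (0.88 ± 0.11) rose and the loader Cdc6 (-0.67 ± 0.09) fell. The letters TTTGAA, part of a cell cycle element (CHR), occur in 34.1% of the 44 promoter windows of the mitosis list, against 13.3% of those of all genes tested.

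Of 32 targets of the tumour suppressor p53, 18 rose and 8 fell, with a median of 0.51 (9 and 8 with the row letter as a block). The kinases Plk2 (1.73 ± 0.09) and Plk3 (1.01 ± 0.09) and the growth arrest gene Gadd45a (1.23 ± 0.08) rose. Ddit4l, an inhibitor of mTORC1, lay at 10.06, 9.69, 9.61 and 9.77 in the controls and at 7.46, 7.06, 6.92 and 7.30 with serotonin. The groups were 2.15 apart (-2.60 ± 0.13, adjusted p = 4.73e-12), and A2/12 fell by less, -0.77 ± 0.13 (difference -1.83 ± 0.19, adjusted p = 2.35e-07). Gadd45g (-1.42 ± 0.10) and Trp53inp2 (-1.61 ± 0.10) fell. Sesn2 rose and Sesn1 fell, as given above. In the BCL2 and caspase list 5 of 29 rose and 11 fell (3 and 5 with the row letter as a block, 10 and 8 with median centring). The inflammatory caspase Casp4 (1.52 ± 0.11), the pore former Gsdme (0.90 ± 0.10) and the killer protein Bbc3 (0.61 ± 0.09) rose, and the killer proteins Bmf (-1.65 ± 0.12) and Bok (-0.95 ± 0.11) and the executioner Casp6 (-0.62 ± 0.09) fell.

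Of 40 receptors and transporters for glutamate, GABA, glycine and acetylcholine 13 lay above it, 2 rose and 4 fell. Chrnb1, the muscle-type subunit of the nicotinic receptor, lay at 6.57, 6.60, 6.82 and 6.72 in the controls and at 7.51, 8.00, 8.01 and 7.99 with serotonin. Serotonin replicate 1 was the lowest of its group (1.20 ± 0.12, adjusted p = 7.36e-08), and A2/12 rose by 1.46 ± 0.12 (difference -0.26 ± 0.17, adjusted p = 0.339). Chrnb2 rose by 1.05 ± 0.14, and the glutamate receptor subunits Gria3 (-1.74 ± 0.13) and Grin2a (-1.21 ± 0.21) fell. Of 57 ion channel genes 17 fell and 6 rose (10 and 3 with the row letter as a block), with the touch channel Piezo2 at -2.01 ± 0.12 and its relative Piezo1 at 0.56 ± 0.07, and the chloride channels Ano1 at -1.24 ± 0.14 and Clcn3 at 0.87 ± 0.10. Of 52 synaptic vesicle genes 16 fell and 3 rose (7 and 2 with the row letter as a block, 8 and 7 with median centring). Without serotonin replicate 1, 5 rose. The exocytosis GTPase Rab27b fell by 1.26 ± 0.13 and the membrane fusion protein Stx3 rose by 0.94 ± 0.09.

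Of 46 phosphodiesterases, cyclases and RGS proteins 17 fell and 4 rose. Pde2a, which breaks down cyclic AMP when stimulated by cyclic GMP, lay at 8.72, 8.93, 8.81 and 8.94 in the controls and at 6.87, 6.50, 6.27 and 6.52 with serotonin. The groups were 1.85 apart (-2.31 ± 0.12, adjusted p = 4.67e-12). A2/12 was at 0.22 ± 0.12, not called, and the lines differed (-2.52 ± 0.17, adjusted p = 6.48e-10). The calmodulin-dependent Pde1a (-2.05 ± 0.14) and Pde1b (-1.67 ± 0.13) fell with it, as did Pde4d (-0.69 ± 0.08). Of 68 G protein coupled receptors 23 fell and 4 rose (14 and 1 with the row letter as a block): the adhesion receptors Adgrl3 (-2.14 ± 0.18) and Adgrg1 (-1.63 ± 0.09) and the ADP receptor P2ry1 (-2.13 ± 0.12) fell. Of 64 forebrain and hypothalamic transcription factors 33 fell and 1 rose. Dlx5 (-2.07 ± 0.12), the neural stem cell factors Sox9 (-1.63 ± 0.12) and Sox2 (-0.90 ± 0.09), Nr2f1 (-1.50 ± 0.11) and the mesenchymal Snai1 (-1.40 ± 0.10) fell, while Otp, which specifies neuroendocrine neurons, was at -0.02 ± 0.11 (adjusted p = 0.932).

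Autophagy delivers cell contents to lysosomes for breakdown. Of 37 autophagy genes 20 rose and 1 fell, with a median of 0.27 and no change as large as 2-fold (7 and 1 with the row letter as a block). The cargo receptor Sqstm1 (0.64 ± 0.06), Gabarapl1 (0.85 ± 0.07) and Atg14 (0.77 ± 0.12) rose, and Map1lc3b was at -0.12 ± 0.06 (adjusted p = 0.157). Of 41 lysosomal genes 18 fell and 10 rose (14 and 4 with the row letter as a block): the galactosidase Gla rose by 1.09 ± 0.09, and the protease Ctsh (-1.08 ± 0.08) and the transcription factor gene Tfeb (-0.81 ± 0.10) fell. Of 57 genes of ER to Golgi transport and glycosylation 27 fell and 7 rose (18 and 1 with the row letter as a block). Gnpnat1, of the hexosamine pathway, lay at 8.08, 8.24, 8.24 and 8.15 in the controls and at 9.59, 9.94, 9.91 and 9.85 with serotonin, with 1.35 between the groups (1.64 ± 0.10, adjusted p = 3.72e-11) and 1.49 ± 0.10 in A2/12 (difference 0.15 ± 0.14, adjusted p = 0.509). Creb3l1, a membrane-bound factor that drives secretion and collagen genes, lay at 8.29, 8.42, 8.31 and 8.47 in the controls and at 7.12, 6.64, 6.89 and 6.88 with serotonin. It was at least 1.17 lower in every serotonin array (-1.50 ± 0.09, adjusted p = 3.65e-11), with -1.17 ± 0.09 in A2/12 (difference -0.33 ± 0.13, adjusted p = 0.07). Its relative Creb3l2 (-1.05 ± 0.09) and the coat protein Sec24d (-0.62 ± 0.07) fell. Of 21 vacuolar ATPase subunits 5 rose and 4 fell (23.8% and 19.0%), near the shares of all genes, with Atp6v1a at -0.01 ± 0.08 (adjusted p = 0.933). Of 35 cilium genes 11 rose and 7 fell (1 and 5 with the row letter as a block, 17 and 3 with median centring), Bbs5 rising by 1.18 ± 0.13.

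Of 21 clock genes 10 rose and 7 fell. Ciart, a repressor of the clock's activator pair, lay at 7.90, 8.07, 8.19 and 8.04 in the controls and at 10.02, 10.19, 10.05 and 10.18 with serotonin. All serotonin arrays lay at least 1.83 above the controls (2.06 ± 0.11, adjusted p = 1.37e-11), with 2.13 ± 0.11 in A2/12 (difference -0.08 ± 0.16, adjusted p = 0.813). Rora (1.30 ± 0.09), Nfil3 (1.21 ± 0.16) and the repressor Cry1 (0.78 ± 0.08) rose, the activators Arntl (-0.74 ± 0.09) and Npas2 (-0.83 ± 0.14) and the repressor Per3 (-0.82 ± 0.10) fell, and Per1 was at 0.26 ± 0.11 (adjusted p = 0.0612). Per1 was called higher in a fit of the 8 arrays alone (0.26, adjusted p = 0.0168) and with median centring (0.38, adjusted p = 0.00897). Of 56 enzymes of histone acetylation and methylation 23 rose and 7 fell (6 and 6 with the row letter as a block, 38 and 6 with median centring). The acetyltransferases went apart, Kat2a by 1.03 ± 0.07 and Kat2b by -1.09 ± 0.09. Hdac9, a class IIa deacetylase, lay at 6.37, 6.77, 6.80 and 6.67 in the controls and at 5.34, 5.07, 5.20 and 5.22 with serotonin, with 1.03 between the groups (-1.44 ± 0.12, adjusted p = 2.11e-09). A2/12 fell by less, -0.83 ± 0.12 (difference -0.61 ± 0.16, adjusted p = 0.00888). Of 42 splicing and RNA decay factors 22 rose and 4 fell (4 and 2 with the row letter as a block), with the decay kinase Smg1 at 0.65 ± 0.12 and the splicing factor Celf2 at -0.88 ± 0.08.

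The promoter search also covered further motifs, with shares of the windows of all genes tested, of those at least 2-fold higher and of those at least 2-fold lower. GCGTG (XRE), of the aryl hydrocarbon receptor, occurs in 36.1%, 50.6% and 34.9%. These letters are few, and their share varied widely between the lists searched. It ran from 21.9% of the windows of the collagens (median change -0.64) to 73.9% of those of the ER chaperones (median change -0.00638). Between them lay the serine and related enzymes, with 68.4% and a median change of 0.89. Whether these letters go with a change was not tested. TGACGTCA (CRE) occurs in 2.07%, 3.56% and 1.18%. TGACNNNGC (ARE), of NRF2, occurs in 10.9%, 12.8% and 9.84%. TGANTCA (AP1) occurs in 5.9%, 4.51% and 6.56%, GGAATG (TEAD) in 11.5%, 9.03% and 13.9%, and the heat shock element (HSE), GAA, TTC and GAA with 2 bases of any kind between each, in 0.391%, 0.475% and 0.131%. The ARE and AP1 letters can share bases. A window without a match says only that these letters are not in it.

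The responses of E46 and A2/12 at the titled 100 have separate controls, and their values can be set side by side. In A2/12 24.8% of genes were called higher and 21.1% lower, and the difference of the responses was called for 4142 genes, 22.0% of those tested. For some of the lists, the medians in E46 and A2/12 were 1.10 and 1.17 for nucleolar assembly, 1.04 and 1.01 for the cytosolic synthetases, 0.77 and 0.91 for the stress response regulators, -0.64 and -0.53 for collagens and -1.06 and -0.44 for cholesterol synthesis. The mitosis list was at -0.37 and -0.85, and the heat shock list at 0.28 and 0.79. Of the 28 genes given array by array, 18 had a called difference, the largest in Mgll, Ces1d, Pde2a and Ccl5. These genes were chosen by a large change in E46, which makes a called difference more likely than among all genes. No list difference was tested.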

How the data were processed

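RNA was measured on 20 arrays of a single platform, 1 RNA sample an array. The deposited log2 values are probe set levels made by the authors with RMA, per the submitters' processing notes, which corrects background, normalizes between arrays and summarises probes. The RMA version and annotation were not found in the sources used here. Of 35556 probe sets 21218 have a single gene symbol in the platform annotation, 1881 have several and 12457 none, and symbols were updated through Entrez identifiers for 21185. For 1386 genes with several probe sets that of highest mean was kept, which gave 18820 genes. RMA pulls levels near background together, so that folds of dim genes are understated.

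All 20 arrays were fitted with 1 mean per group in limma 3.58.1 (R 4.3.3) with empirical Bayes, and p-values were adjusted by Benjamini-Hochberg over all genes. The script was tested on simulated data. The number of arrays, 4 a group, limits the precision: the median SE of a change was 0.100. Genes named are key members of each list, up to 4 called in each direction per list, and ranks 11 to 25. The called gene with the largest change in each direction of each section, outside the 10 largest, is named too. That gene and the ranks were taken among genes whose groups do not overlap. Exceptions are named as such. The members and lists were chosen with earlier results of these data known. Alternatives varied the arrays, blocks, scaling, filter, probe set, threshold and dose label.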

Additional observations from a re-analysis of the deposited data

Results flagged for a closer look

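For the genes named, a single array stood apart from the other 3 of its group (Dixon's test) in 67 of 838 groups of 4 arrays, 8.00%. Chance gives about 1 in 20. Levels of these arrays are log2 values.

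Control replicate 1 stood apart for Abcc1 (9.76), Atg14 (7.72), Atp6v1a (10.84), Cda (9.92), Cdkn2c (9.70), Cp (8.87), Cyp1b1 (10.90), Eif5 (10.54), Epha4 (8.93) and F3 (9.06). It also did so for Hilpda (5.66), Hspa9 (10.76), Hspd1 (10.33), Idh1 (10.59), Klf10 (9.33), Lama4 (7.02), Nars2 (5.96), Pla2g7 (7.51), Psmc6 (9.77) and Slc7a3 (7.60). Further such genes were Spc25 (7.98), Txnrd1 (8.44) and Vnn1 (7.58). Control replicate 2 stood apart for Etv5 (7.82) and Otp (5.64). Control replicate 3 stood apart for Fbl (9.56) and Ptch1 (9.47). Control replicate 4 stood apart for Chac1 (8.43) and Fads2 (12.16). Serotonin replicate 1 stood apart for Acta2 (11.19), Atr (8.60), Castor2 (7.74), Ccnd1 (8.28), Ccnd2 (10.36), Cdh2 (10.67), Chrnb1 (7.51), Cox6a2 (9.22), Eif2b3 (9.85) and Ero1a (10.91). It also did so for Ero1b (6.84), Gfra2 (6.86), Gnl3 (10.18), Gper1 (6.54), Gria3 (8.17), Hspd1 (11.35), Mgll (5.39), Mrps30 (7.54), Mthfd2 (11.12) and Myl9 (10.00). Further such genes were Ndufa8 (10.07), Ppargc1a (7.72), Psmc6 (10.48), Qars (10.16), Slc1a3 (8.67), Slc39a13 (9.02), Slc7a2 (9.23), Snhg5 (9.76) and Stx3 (8.76). Serotonin replicate 2 stood apart for Chek2 (8.36), Creld2 (9.84), Igfbp4 (7.43), Tfeb (7.07) and Vldlr (10.66). Serotonin replicate 3 stood apart for Gclm (11.18) and Snap25 (3.99). Serotonin replicate 4 stood apart for Irf7 (4.88) and Nfe2l2 (11.28).

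Of the 28 genes given array by array, the change in E46 differed from that in A2/12 for 18 (limma contrast, adjusted p below 0.05). Their choice by a large E46 change makes such a call more likely. The difference, E46 change minus A2/12 change, was above 0 for Cpox (1.36), Hk2 (0.50), Ampd3 (0.72), Dhrs9 (1.94), Id3 (1.06), Ccl5 (2.13), Mmp11 (1.10), Kif21b (1.25) and Sesn2 (0.50). It was below 0 for Slc1a3 (-0.90), Ces1d (-2.60), Mgll (-3.19), Tnfrsf11b (-1.15), Col6a3 (-0.51), Myl9 (-1.86), Ddit4l (-1.83), Pde2a (-2.52) and Hdac9 (-0.61).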

How the results depend on the processing

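The counts of 3826 genes higher and 3625 lower moved by over 1.5 times within position 5 alone (1699 and 1484), position 7 (1381 and 2088) and position 9 (217 and 654), with the row letter as a block (1545 and 2387), within row B (1340 and 2132), against a fold of 1.5 (605 and 941) and under the crossed dose label (1 and 1). The 4142 genes whose response differed between the lines became 1505 with the row letter as a block, 790 against a fold of 1.5 and 7435 under the crossed label. Leaving out 1 array gave 3318 to 3905 genes higher, 3298 to 3658 lower and 3767 to 4257 differing. Without the arrays of upper quartile under 8.2, an alternative chosen after seeing the data, 3733 were higher and 3934 lower. With the replicate number as a block the counts were 3855, 3613 and 4121. The numbers do not pair the arrays: same-numbered arrays correlated at 0.237, 0.001, 0.051 and -0.105 in their deviations, and the block changed the call of none of the 419 genes named. Of 387 called genes named, 373 kept call and direction in all 13 alternatives run for single genes, and 383 in every fit without 1 array. Those 13 are the fit of the 8 arrays alone, the replicate and row blocks, quantile normalization, median centring and the fits without 1 array. The crossed label, the fold of 1.5, single positions, row B alone, the background filter and the probe set choice were not among them. The cause of these differences was not tested. Genes near background have folds that these arrays limit.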
